A study of Mus musculus with 22 samples.

Results

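Bone marrow edited with guides against Ezh2 and Runx1 was compared with bone marrow edited with guides against Bcor and Runx1. Of the 22 libraries of the study, 7 belong to this comparison: 4 of sgEzh2 + sgRunx1 and 3 of sgBcor + sgRunx1, taken by their labels. In both groups, stem and progenitor cells (the LSK fraction, without lineage markers and positive for Sca-1 and Kit) from Cas9 knock-in mice carried a pair of single guide RNAs and were transplanted into C57BL/6 mice irradiated with 7 Gy. Each library is polyadenylated RNA of the whole marrow, collected when a mouse showed signs of leukaemia or at 6 months. The labels do not say which of these applied to a mouse, nor the age or sex of the mice. Other groups of the study serve as reference here: sgLuc (6 libraries), whose guide targets luciferase and so no mouse gene, and sgRunx1, sgEzh2 or sgBcor each with sgLuc (3 libraries a group). The Runx1 guide is shared by both groups, so the comparison sets one Polycomb guide against the other. The marrow also holds whatever unedited or host cells remained after transplantation, and nothing in the labels says that the transplanted cells of the mice came from separate donors. The p-values therefore measure the spread between these libraries. The 2 groups are called Ezh2-Runx1 marrow and Bcor-Runx1 marrow here, and replicate values are given in the order of the title numbers, 1 to 4 and 1 to 3.

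Ezh2 encodes the enzyme of Polycomb repressive complex 2 (PRC2) that methylates histone H3 at lysine 27, a mark of silenced genes. Bcor encodes a scaffold of a variant Polycomb repressive complex 1 (PRC1.1), which ubiquitinates histone H2A, so both proteins act in gene repression but in separate complexes. Runx1 encodes a transcription factor needed to form blood stem cells and for later blood cell maturation. Mutations of all 3 genes occur in human myeloid neoplasms. Homeobox genes, the cell cycle inhibitor locus Cdkn2a and granulocyte maturation are classical readouts of these regulators.

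The libraries held 34784989 to 53836084 counted reads, and 15286 genes passed a filter on low counts. Levels are CPM, the reads of a gene per 1000000 counted reads, with libraries scaled by the TMM method. All 7 libraries expressed Xist, at 302 to 685 CPM, and none had a read of 4 Y-linked genes. Granulocyte and monocyte transcripts were abundant in both groups. The 20 granule genes of the later neutrophil stages summed to 48410.2 to 61189 CPM in Ezh2-Runx1 marrow and to 93045 to 127058 CPM in Bcor-Runx1 marrow. In sgLuc marrow they summed to 49127 to 100132 CPM, a range that overlapped both groups. Red cell transcripts, a defining part of whole marrow, were scarce in both, with 23 erythroid genes summing to 125 to 291 and 147 to 358 CPM, as in the sgLuc control marrow at 170.2 to 308 CPM. Correlations of log2 CPM were 0.971 to 0.985 among the Ezh2-Runx1 libraries, 0.952 to 0.965 among the Bcor-Runx1 libraries and 0.935 to 0.956 between the groups.

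The guide targets were examined first. Runx1 (ENSMUSG00000022952, chromosome 16, 92601466 to 92826149, minus strand, GRCm38) was at 133, 98.6, 109 and 119 CPM in Ezh2-Runx1 marrow and at 91.9, 133 and 117 CPM in Bcor-Runx1 marrow, and the groups overlapped. Its log2 fold change was 0.02 (SE 0.16, FDR 0.966, edgeR quasi-likelihood test). Ezh2 (ENSMUSG00000029687, chromosome 6, 47530139 to 47595341, minus strand) was at 49.6, 43.4, 47.1 and 75.3 CPM against 65.9, 80.5 and 86.3 CPM. Replicate 4 of the Ezh2-Runx1 group lay inside the range of the other group, and the log2 fold change of -0.53 (SE 0.20, FDR 0.139) did not pass the threshold. Bcor (ENSMUSG00000040363, chromosome X, 12036740 to 12160355, minus strand) was at 64.7, 53.6, 63.4 and 62.8 CPM against 157, 64.0 and 76.5 CPM, so 2 of the 3 libraries given its guide lay above the other group and 1 lay inside its range, with a log2 fold change of -0.70 (SE 0.27, FDR 0.155) for Ezh2-Runx1 over Bcor-Runx1 marrow. On the scale of all 22 libraries, Ezh2 was at 88.2 to 110 CPM and Bcor at 50.8 to 68.1 CPM in sgLuc marrow. A small deletion from a guide can leave the number of transcripts in place, so these levels do not check the editing. Since Runx1 was the shared target, its partners were examined too. Of 11 tested RUNX family members and partners, 2 rose, both corepressors, beside 4.98% of all tested genes called higher. Tle1 was at 23.3, 27.2, 33.8 and 27.2 CPM against 12.2, 12.1 and 7.77 CPM (log2 fold change 1.38, SE 0.21, FDR 0.00741), with a call in every omission. Cbfa2t3 rose by 0.91 (SE 0.21, FDR 0.0321) and lost its call in all omissions except those of Bcor-Runx1 replicate 2 and Ezh2-Runx1 replicate 2 (FDR up to 0.099). Reads of Ezh2 and Runx1 cannot be separated from those of overlapping genes on the opposite strand (Gm26625 and Gm26626), since the counting is not stated to use strand. Within 1 Mb of the targets, 2 of 21 tested genes near Ezh2, 1 of 6 near Bcor and 1 of 19 near Runx1 were called. Of all tested genes, 8.4% were called, so these small counts give no sign of a local excess. The called genes near Ezh2 were Zfp777 and Gm26625, the gene that overlaps Ezh2 on the opposite strand and can share reads with it.

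Across all genes, 1284 of 15286 (8.4%) differed at a false discovery rate (FDR, Benjamini-Hochberg) under 0.05, of which 762 (4.98%) were higher and 522 (3.41%) lower in Ezh2-Runx1 marrow. The 2 directions differed in size. Among the genes called higher, the median log2 fold change was 1.86, 357 exceeded 4-fold and 122 exceeded 16-fold. Among the genes called lower, the median was -0.82, 38 exceeded 4-fold and 2 exceeded 16-fold. The median over all tested genes was -0.01. Levels of 3620 genes (23.7%) did not overlap between the groups, and these included 1279 of the 1284 called genes. When libraries were scaled by their total counts alone, all genes shifted by a median of 0.20 (log2) and 84.9% of 1438 called genes were higher, against 59.3% of 1284 with TMM, so the directions below are relative to the TMM scale. The count depended on which library was left out: without Ezh2-Runx1 replicate 4, 360 genes were called, and without Bcor-Runx1 replicate 2, 1667. Leaving out each other library in turn gave 1644 genes without Bcor-Runx1 replicate 1, 584 without its replicate 3, and 541, 696 and 734 without Ezh2-Runx1 replicates 1, 2 and 3. Of 93 called genes named by the rule used here, 40 kept their call in all 7 of these omissions, and none of the 93 changed direction in any alternative.

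**Figure D1:**
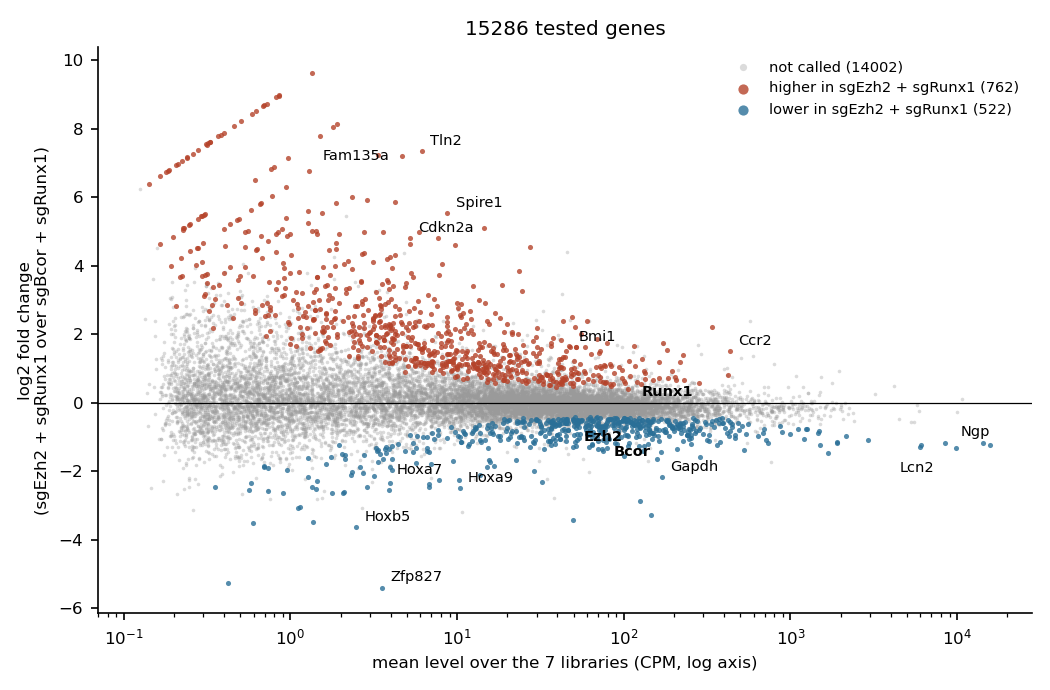
Mean level over the 7 libraries (CPM, log axis) against the log2 fold change of sgEzh2 + sgRunx1 over sgBcor + sgRunx1 for the 15286 tested genes, 1 point a gene, with called genes in colour and guide targets in bold. The 762 genes called higher reach far larger fold changes, mostly at low levels, than the 522 called lower, and the straight rows of points at the upper left are genes with few or no reads in Bcor-Runx1 marrow.

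Of the called genes that averaged 2 CPM or more across the 7 libraries, those with the largest rise were near silent in Bcor-Runx1 marrow and at a low to moderate level in every Ezh2-Runx1 library. Tln2 (talin-2, which links integrins to actin; chromosome 9, 67217087 to 67559703) was at 8.49, 11.1, 8.55 and 14.5 CPM in Ezh2-Runx1 marrow and at 0, 0.202 and 0 CPM in Bcor-Runx1 marrow. All Bcor-Runx1 libraries together held 7 reads of Tln2 against 1995 in the Ezh2-Runx1 libraries, and the log2 fold change was 7.34 (SE 0.84, FDR 0.00428). Fam135a (chromosome 1, 24011093 to 24100341) was at 6.20, 7.99, 10.1 and 8.30 CPM against 0.0941, 0 and 0.0541 CPM, a log2 fold change of 7.22 (SE 0.58, FDR 0.000984). Casc4 (chromosome 2, 121866970 to 121936220) was at 5.02, 4.07, 7.72 and 6.64 CPM against 0, 0.115 and 0 CPM (log2 fold change 7.24, SE 0.83, FDR 0.00359). The rule that named these 3 genes required no overlap and took the largest rises. Their on and off pattern follows in part from that rule. Lrig3, a transmembrane protein with leucine-rich repeats and immunoglobulin domains, was at 3.80, 5.39, 5.605 and 5.07 CPM against 0.0471, 0.115 and 0.0812 CPM (log2 fold change 5.91, SE 0.43, FDR 0.000667). Spire1, an actin nucleator, was at 14.2, 17.1, 14.6 and 14.2 CPM against 0.306, 0.606 and 0.0541 CPM (log2 fold change 5.55, SE 0.55, FDR 0.00221). Tjp1, the tight junction scaffold ZO-1, was at 18.7, 33.1, 23.0 and 24.7 CPM against 0.753, 1.36 and 0.0541 CPM (log2 fold change 5.11, SE 0.70, FDR 0.00695). These 6 genes kept their call whichever library was left out. Dnaja4, an Hsp40 co-chaperone, Plekha8, a glycolipid transfer protein, Ttc12 and Ryk, a Wnt receptor, rose by log2 fold changes of 6.01, 5.87, 4.99 and 4.99, also with every omission. Igf1, the growth factor IGF-1, was at 11.4, 3.09, 12.5 and 13.1 CPM against 0.471, 0.462 and 0 CPM (log2 fold change 4.99, SE 0.91, FDR 0.0168), and without Ezh2-Runx1 replicate 4 its FDR was 0.054.

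Cdkn2a, whose 2 products p16INK4a and p19ARF stop the cell cycle and which PRC2 is known to silence in many cell types, was also among the 12 largest rises. It was at 6.44, 13.1, 6.78 and 9.09 CPM in Ezh2-Runx1 marrow and at 0, 0.866 and 0.108 CPM in Bcor-Runx1 marrow, without overlap. The log2 fold change was 4.80 (SE 1.00, FDR 0.0258). The call was lost without Bcor-Runx1 replicate 3 or without any of Ezh2-Runx1 replicates 1, 2 and 4, with an FDR of up to 0.076 and log2 fold changes from 4.19 to 7.36. Cdkn2a was at 0.252 to 1.17 CPM in 6 sgLuc libraries and at 0.817 to 1.91 CPM in 3 libraries of sgRunx1 + sgLuc. With either Polycomb guide beside sgLuc it was at 0.947 to 10.2 CPM for sgEzh2 and at 0.289 to 2.85 CPM for sgBcor, so the sgEzh2 + sgLuc range overlapped that of Ezh2-Runx1 marrow (6.58 to 13.2 CPM on the same scale). It was the only called member of 6 tested INK4 and CIP/KIP inhibitors, whose median log2 fold change was 0.44. The share of all tested genes called in either direction was 8.4%.

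The largest falls included a zinc finger gene, Hox genes and granulocyte genes. Zfp827 (chromosome 8, 79028437 to 79193766) was at 0.162, 0.0479, 0.188 and 0.323 CPM in Ezh2-Runx1 marrow and at 6.78, 7.501 and 9.66 CPM in Bcor-Runx1 marrow (log2 fold change -5.40, SE 0.49, FDR 0.00167). The lowest Bcor-Runx1 library lay far above the highest Ezh2-Runx1 library. Levels of Zfp827 were 0.0224 to 0.128 CPM in sgRunx1 + sgLuc and 0.410 to 2.09 CPM in sgLuc, and they were 3.56 to 33.5 CPM with sgEzh2 and 8.34 to 20.2 CPM with sgBcor beside sgLuc. The stefin A genes Stfa1 and Stfa2l1, inhibitors of cysteine proteases in granulocytes, fell by 3.42 and 2.86 on the log2 scale. Stfa2l1 was at 29.4, 52.5, 44.0 and 9.61 CPM against 202, 249.7 and 288 CPM, with no overlap, and kept its call in all omissions, while Stfa1 ranged from 36.6 to 214 CPM within Bcor-Runx1 marrow and lost its call in 6 of 7 omissions, all except that of Bcor-Runx1 replicate 1 (FDR up to 0.105). These near-identical genes can share reads, so which copy carries them is uncertain. Olfm4, a protein of neutrophil specific granules, was at 14.0, 4.38, 11.02 and 17.9 CPM against 48.6, 47.5 and 82.0 CPM (log2 fold change -2.32, SE 0.42, FDR 0.0168), and its FDR was 0.056 without Bcor-Runx1 replicate 3. Plekha6, Inpp5j, Ankrd63 and Syngr1 fell by 2.63, 2.48, 2.39 and 2.26 on the log2 scale and kept their calls in every omission. Baiap3 fell by 2.60 and lost its call without Ezh2-Runx1 replicate 1, 2 or 4 (FDR up to 0.075).

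**Figure D2:**
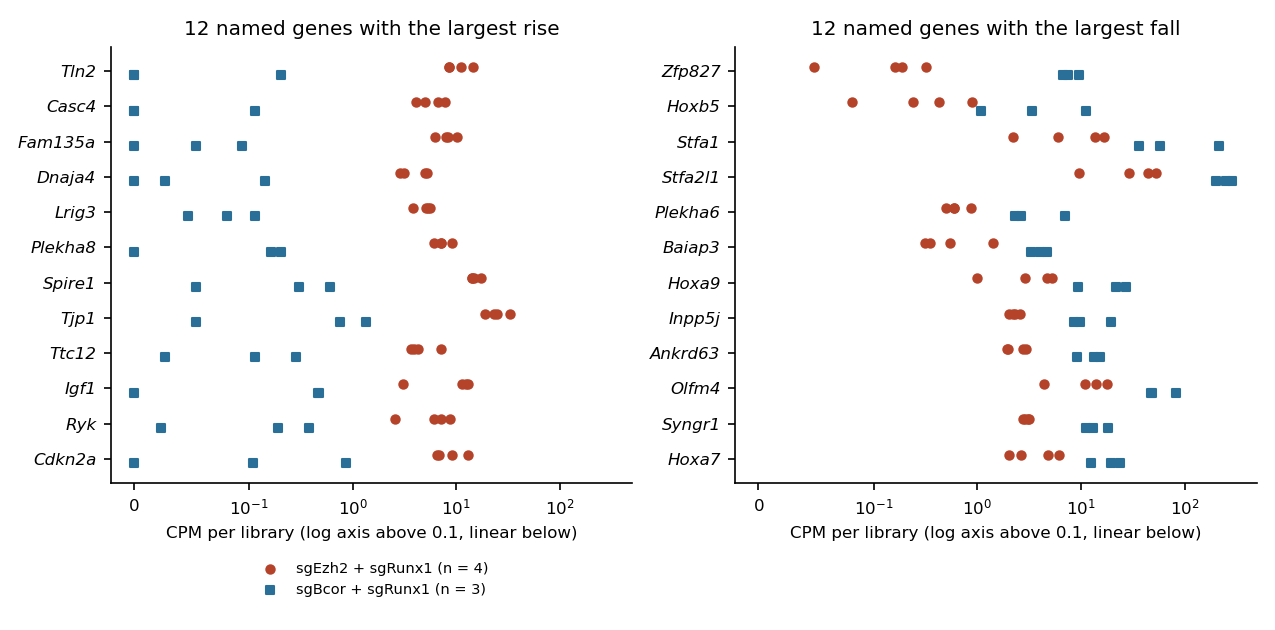
Level of the 12 named genes with the largest rise (left) and the largest fall (right) in each library, in CPM on an axis that is logarithmic above 0.1 and linear below, with circles for the 4 sgEzh2 + sgRunx1 libraries and squares for the 3 sgBcor + sgRunx1 libraries. No gene overlaps between the groups, which the naming rule required, and Tln2 and Casc4 have no read in 2 of the 3 Bcor-Runx1 libraries.

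Hox genes encode homeobox transcription factors of the body axis, and the Hoxa cluster also keeps blood stem cells and many leukaemias in a self-renewing state. Polycomb complexes silence Hox clusters in most tissues. Of 11 Hoxa genes, 9 were tested and 3 fell (Hoxa5, Hoxa7 and Hoxa9), with a median log2 fold change of -1.89. The share of all tested genes called lower was 3.41%. Hoxa9 was at 5.23, 1.01, 4.71 and 2.89 CPM in Ezh2-Runx1 marrow and at 21.96, 9.41 and 27.3 CPM in Bcor-Runx1 marrow (log2 fold change -2.50, SE 0.54, FDR 0.0287). Hoxa7 was at 6.12, 2.03, 4.85 and 2.65 CPM against 23.8, 12.4 and 19.6 CPM (log2 fold change -2.25, SE 0.39, FDR 0.0127). Hoxa5 was at 2.05, 0.766, 1.25 and 1.06 CPM against 5.51, 4.99 and 6.49 CPM (log2 fold change -2.15, SE 0.36, FDR 0.011). In all 3 genes the lowest Bcor-Runx1 library, replicate 2 each time, stood above the highest Ezh2-Runx1 library. Hoxa5 and Hoxa7 kept their calls in all omissions, and Hoxa9 lost its call without Bcor-Runx1 replicate 1 or 3 or Ezh2-Runx1 replicate 4 (FDR up to 0.095). Among the members not called, Hoxa2, Hoxa3, Hoxa6 and Hoxa10 had log2 fold changes of -1.51, -1.89, -2.20 and -1.69 (FDR 0.137, 0.122, 0.146 and 0.383), and Hoxa4 had 0.76 (FDR 0.439). Because Hoxa3 spans several of its neighbours and the antisense transcript Hoxaas3 overlaps Hoxa3 to Hoxa7, single reads here can belong to more than 1 gene.

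On the level per gene length (FPKM), Hoxa7 was the most abundant of Hoxa5, Hoxa7 and Hoxa9 in Bcor-Runx1 marrow, with means of 2.79 for Hoxa5, 14.3 for Hoxa7 and 12.2 for Hoxa9, and their values in sgBcor + sgLuc marrow were 3.82, 14.8 and 18.0 FPKM. In Ezh2-Runx1 marrow the means were 0.728, 3.44 and 2.48 FPKM, and in sgLuc marrow 0.612, 3.38 and 4.31 FPKM. The Ezh2-Runx1 levels of Hoxa7, from 2.06 to 6.25 CPM on the scale of all 22 libraries, spanned the sgLuc range of 3.09 to 5.37 CPM, while the Bcor-Runx1 levels of 12.2 to 24.1 CPM lay above it. The promoters of Hoxa5, Hoxa7 and Hoxa9 are printed because these are the Hoxa genes that fell and CG dinucleotides mark the islands where Polycomb complexes are known to bind. They span 250 bases before to 50 bases after the transcript start, on the gene's strand, from RefSeq (GRCm38.p6), at chr6:52204538-52204837 for Hoxa5, chr6:52218524-52218823 for Hoxa7 and chr6:52227321-52227620 for Hoxa9. Every CG is in capitals.
Hoxa5 promoter: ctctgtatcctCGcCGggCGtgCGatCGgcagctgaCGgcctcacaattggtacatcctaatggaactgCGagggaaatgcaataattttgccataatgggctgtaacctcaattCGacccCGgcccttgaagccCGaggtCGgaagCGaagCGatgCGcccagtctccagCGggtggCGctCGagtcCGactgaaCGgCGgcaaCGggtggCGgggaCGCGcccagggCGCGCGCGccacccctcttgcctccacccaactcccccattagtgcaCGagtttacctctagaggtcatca
Hoxa7 promoter: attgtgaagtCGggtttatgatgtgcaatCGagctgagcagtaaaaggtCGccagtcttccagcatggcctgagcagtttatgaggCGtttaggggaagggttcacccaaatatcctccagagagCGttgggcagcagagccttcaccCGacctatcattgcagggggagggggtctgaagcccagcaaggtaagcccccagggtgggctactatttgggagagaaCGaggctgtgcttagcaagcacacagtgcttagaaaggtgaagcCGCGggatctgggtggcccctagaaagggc
Hoxa9 promoter: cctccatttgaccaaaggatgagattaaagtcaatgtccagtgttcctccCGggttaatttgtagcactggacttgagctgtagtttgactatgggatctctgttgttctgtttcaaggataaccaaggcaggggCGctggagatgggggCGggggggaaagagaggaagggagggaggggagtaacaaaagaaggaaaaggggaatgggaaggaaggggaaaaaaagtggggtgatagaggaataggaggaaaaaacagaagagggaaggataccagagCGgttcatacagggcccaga
The Hoxa5 window holds 29 CG, the Hoxa7 window 9 and the Hoxa9 window 4. The falls of the 3 genes were too close for their SEs to be ranked, and a link with the CG count was not tested. For each gene, the window of the first listed start is printed. These genes lie on the minus strand, and the Hoxa5 window holds the upstream end of its gene at 52204587. The Hoxa7 and Hoxa9 windows lie inside genes whose upstream ends are at 52221854 and 52231089. Their CG counts are therefore of an internal start and do not describe the other starts. Of 32817 such windows in the table, 12.9% hold at least 29 and 45.8% at least 9, and the median is 7. CG reads the same on both strands, and no factor binding was measured in these mice.

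Of 10 Hoxb genes, 5 were tested and 2 fell, with a median log2 fold change of -0.38. Hoxb5 was at 0.0809, 0.239, 0.424 and 0.885 CPM against 3.37, 11.3 and 1.08 CPM (log2 fold change -3.64, SE 0.89, FDR 0.0405). The gap between the groups was narrow in Hoxb5, and its call was lost without Bcor-Runx1 replicate 2 or any 1 Ezh2-Runx1 library (FDR up to 0.096). Hoxb2 was at 0.0270, 0, 0.0236 and 0.0340 CPM against 0.518, 1.93 and 0.406 CPM and kept its call in all omissions (log2 fold change -5.26, SE 0.89, FDR 0.0111). None of 18 Hoxc and Hoxd genes reached the level needed for a test. Among 7 tested Hox cofactors, which bind DNA with Hox proteins, 2 rose and none fell. The other 5 had log2 fold changes from -0.40 to 1.30, and the list median was -0.15. For both lists, the shares over all tested genes were 4.98% called higher and 3.41% called lower. Pbx3 was at 20.3, 20.7, 25.4 and 20.6 CPM against 1.55, 5.40 and 1.19 CPM (log2 fold change 3.01, SE 0.50, FDR 0.0122). Meis1 was at 14.6, 11.8, 10.4 and 12.8 CPM against 7.06, 5.89 and 4.09 CPM (log2 fold change 1.12, SE 0.24, FDR 0.0238), and its call was lost without Bcor-Runx1 replicate 3 or Ezh2-Runx1 replicate 1 or 4 (FDR up to 0.078). Thus Hoxa9, Hoxa7 and Hoxa5 on one side and Pbx3 and Meis1 on the other differed in opposite directions.

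Among the Polycomb subunits themselves, most transcripts did not pass the test. Of 12 PRC2 subunits and cofactors, 1 was called, Epop, a PRC2 accessory protein, at 11.9, 15.2, 11.7 and 12.05 CPM against 4.73, 8.68 and 5.98 CPM (log2 fold change 0.97, SE 0.24, FDR 0.0391). The other 11 had log2 fold changes from -0.65 to 0.10. Of 10 genes of the BCOR complex, 1 was called, Yaf2, a subunit that binds the RING ubiquitin ligase, at 31.3, 35.6, 30.2 and 28.8 CPM against 47.4, 43.6 and 56.1 CPM (log2 fold change -0.64, SE 0.14, FDR 0.0252). Both calls depended on single libraries: Epop lost its call in 6 of 7 omissions, all except that of Bcor-Runx1 replicate 2 (FDR up to 0.101), and Yaf2 without Bcor-Runx1 replicate 3 or Ezh2-Runx1 replicate 1, 3 or 4 (FDR up to 0.0999). Of 14 other PRC1 subunits, 3 rose and 1 fell, with a median log2 fold change of 0.28. Of all tested genes, 4.98% were called higher and 3.41% lower. Bmi1, the PCGF subunit of canonical PRC1 that maintains blood stem cells by repressing Cdkn2a, was at 47.6, 59.0, 82.2 and 80.0 CPM against 24.8, 18.7 and 22.5 CPM (log2 fold change 1.61, SE 0.21, FDR 0.00547). Pcgf2, its paralogue Mel18, was at 2.59, 3.47, 3.49 and 4.32 CPM against 9.91, 8.25 and 7.77 CPM (log2 fold change -1.32, SE 0.24, FDR 0.0152). Bmi1 and Pcgf2 kept their calls in every omission, in opposite directions. Cbx2, a reader of methylated lysine 27, and Phc1, a polyhomeotic subunit, rose by log2 fold changes of 1.73 (FDR 0.0233) and 0.66 (FDR 0.0452). Cbx2 lost its call without Bcor-Runx1 replicate 3 or Ezh2-Runx1 replicate 2 or 4 (FDR up to 0.079), and Phc1 in all omissions except that of Bcor-Runx1 replicate 2 (FDR up to 0.125). Bmi1 was at 23.7 to 31.2 CPM in sgLuc marrow, a range that Bcor-Runx1 marrow reached or stayed under and Ezh2-Runx1 marrow exceeded, and at 37.3 to 95.4 CPM in sgEzh2 + sgLuc and 28.2 to 42.8 CPM in sgBcor + sgLuc. Both Bmi1 and Cdkn2a were higher in Ezh2-Runx1 marrow. Of 32 developmental regulators that Polycomb is known to silence in many tissues, only 2 reached the level needed for a test and neither was called (0 with an unadjusted p under 0.05), and the other 30 were not testable at this depth.

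Neutrophils load their granules in order: proteases of the primary granules at the promyelocyte stage, then antimicrobial proteins of the secondary and tertiary granules in later stages. Of 20 secondary and tertiary granule genes, 13 fell and none rose, with a median log2 fold change of -1.18, beside 3.41% of all tested genes called lower and an overall median of -0.01. Ngp, a cathelin-related granule protein (chromosome 9, 110419747 to 110423012), was at 6793, 5729, 5327 and 6049 CPM in Ezh2-Runx1 marrow and at 12628, 18187 and 14153 CPM in Bcor-Runx1 marrow (log2 fold change -1.33, SE 0.18, FDR 0.00624). Lcn2, the iron-binding siderophore trap lipocalin-2, was at 3527, 4702, 3499.9 and 3118 CPM against 8232, 9881 and 9013 CPM (log2 fold change -1.28, SE 0.18, FDR 0.00638). Camp, the cathelicidin precursor (chromosome 9, 109847379 to 109849617), was at 4537, 3715, 3392 and 3678 CPM against 7250.0, 11236 and 8687 CPM (log2 fold change -1.24, SE 0.19, FDR 0.00803). Fpr2, a formyl peptide receptor, was at 89.1, 91.6, 104 and 72.7 CPM against 158, 228 and 237 CPM (log2 fold change -1.22, SE 0.17, FDR 0.00659). These 4 genes did not overlap between the groups and kept their calls in every omission. Of the 7 list members not called, none had a positive log2 fold change, with values from -2.03 to -0.17. The count ranged from 7 to 16 members over the omissions of 1 library, all lower: it was 7 without Bcor-Runx1 replicate 3 or Ezh2-Runx1 replicate 1, 3 or 4. In a fit of all 22 libraries, 1 of the 20 was called, and 14 when sgEzh2 + sgLuc replicate 3 was left out of that fit. Fewer granulocytes and less of these transcripts per granulocyte cannot be told apart in whole marrow.

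Ngp and Camp are printed because they moved together at high levels on the same chromosome. The windows are defined as for the Hoxa genes, at chr9:110419558-110419857 for Ngp and chr9:109849407-109849706 for Camp, and every CG is in capitals.
Ngp promoter: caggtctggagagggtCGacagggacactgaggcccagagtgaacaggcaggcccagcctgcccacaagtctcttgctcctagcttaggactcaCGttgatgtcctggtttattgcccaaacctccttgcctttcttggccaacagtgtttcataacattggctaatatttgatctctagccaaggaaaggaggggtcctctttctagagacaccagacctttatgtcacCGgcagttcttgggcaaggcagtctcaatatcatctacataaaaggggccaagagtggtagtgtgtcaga
Camp promoter: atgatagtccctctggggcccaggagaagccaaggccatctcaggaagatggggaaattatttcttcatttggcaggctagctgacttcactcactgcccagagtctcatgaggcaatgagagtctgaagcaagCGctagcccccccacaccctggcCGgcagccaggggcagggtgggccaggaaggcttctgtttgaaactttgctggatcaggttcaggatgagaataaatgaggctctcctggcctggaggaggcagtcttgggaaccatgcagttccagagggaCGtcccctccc
Each window holds 3 CG, beside 29, 9 and 4 in the windows of Hoxa5, Hoxa7 and Hoxa9. Of all windows in the table, 31.4% hold at most 3. Of the 20 granule genes, 18 had a window, with a median of 3 CG.

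Of 9 primary granule genes, 4 fell and none rose, with a median log2 fold change of -0.61, beside 3.41% of all tested genes called lower. Summed, these 9 genes reached 9527 to 12080.3 CPM in Ezh2-Runx1 marrow and 11414 to 18654 CPM in Bcor-Runx1 marrow, so the totals overlapped. Serpinb1a, an inhibitor of neutrophil proteases, was at 235, 294, 248 and 217 CPM against 512, 496 and 650.0 CPM (log2 fold change -1.15, SE 0.15, FDR 0.00547). Elane, neutrophil elastase, was at 1439, 1786, 1514 and 1322 CPM against 2086, 3639 and 3244 CPM (log2 fold change -0.98, SE 0.21, FDR 0.0235). Prss57 and Ms4a3 fell by 1.204 and 1.08 on the log2 scale. Serpinb1a kept its call in every omission, while Elane lost it without Bcor-Runx1 replicate 3 or Ezh2-Runx1 replicate 1, 3 or 4 (FDR up to 0.084), Prss57 without Ezh2-Runx1 replicate 4 (FDR 0.056), and Ms4a3 in all omissions except those of Bcor-Runx1 replicate 1 and Ezh2-Runx1 replicate 2 (FDR up to 0.133). Of 16 myeloid transcription factors, 2 rose and 2 fell, beside 4.98% and 3.41% of all tested genes. Gfi1 and Cebpe, regulators of the granulocyte lineage, fell: Gfi1 was at 46.5, 55.6, 74.8 and 53.02 CPM against 129, 97.5 and 163 CPM (log2 fold change -1.18, SE 0.21, FDR 0.0129), and Cebpe fell by 1.12 (SE 0.24, FDR 0.0241). Zeb2, a regulator of monocyte and dendritic cell development, was at 241, 152, 219 and 242 CPM against 101, 102 and 80.1 CPM (log2 fold change 1.18, SE 0.19, FDR 0.00834), and Irf4 rose by 2.21 (SE 0.53, FDR 0.0356). Zeb2 kept its call in all omissions. Gfi1 missed the threshold without Ezh2-Runx1 replicate 4 (FDR 0.050), Cebpe without Ezh2-Runx1 replicate 1, 2 or 4 (FDR up to 0.081), and Irf4 in all omissions except those of Bcor-Runx1 replicate 2 and Ezh2-Runx1 replicate 2 (FDR up to 0.106).

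Of 15 monocyte genes, 4 rose and 1 fell, with a median log2 fold change of 0.97, beside 4.98% of all tested genes called higher. Ccr2, the chemokine receptor of classical monocytes, was at 606, 631, 532 and 629 CPM in Ezh2-Runx1 marrow and at 244, 239 and 153 CPM in Bcor-Runx1 marrow (log2 fold change 1.497, SE 0.18, FDR 0.00458). Ly86, which pairs with a Toll-like receptor homologue, was at 143, 155, 109 and 160.1 CPM against 66.7, 75.9 and 39.4 CPM (log2 fold change 1.23, SE 0.23, FDR 0.016). Fcgr1, the high-affinity receptor for IgG, and Csf1r, the receptor of the monocyte growth factor M-CSF, rose by 1.4995 (FDR 0.0247) and 0.79 (FDR 0.0463). Itgam, which neutrophils share with monocytes, fell by 0.72 (FDR 0.0319). The groups did not overlap in any of these 5 genes. Ccr2 kept its call in all omissions. Ly86 lost its call without Ezh2-Runx1 replicate 4 (FDR 0.054), Fcgr1 without Bcor-Runx1 replicate 3 or Ezh2-Runx1 replicate 1 or 4 (FDR up to 0.074), and Csf1r in all omissions except that of Bcor-Runx1 replicate 2 (FDR up to 0.130). Itgam lost its call in all omissions except those of Bcor-Runx1 replicates 1 and 2 (FDR up to 0.103). Summed over the list, monocyte genes reached 7348 to 9393 CPM in Ezh2-Runx1 marrow and 2929.9 to 8256 CPM in Bcor-Runx1 marrow, so the totals overlapped. The number of monocyte genes called higher was 6 without Bcor-Runx1 replicate 1, and 2 and 1 without Ezh2-Runx1 replicates 1 and 4. Among 13 tested chemokine ligands, Ccl2 and Ccl7, which attract monocytes through CCR2, rose by 1.86 and 3.35 (FDR 0.0196 and 0.0356). Ccl2 lost its call without Ezh2-Runx1 replicate 4 (FDR 0.055), and Ccl7 without Bcor-Runx1 replicate 1 or 3 or Ezh2-Runx1 replicate 1, 2 or 4 (FDR up to 0.092). Of 15 tissue macrophage genes, only Axl, a receptor kinase for apoptotic cells, was called, at 44.1, 36.8, 21.9 and 52.9 CPM against 2.12, 4.47 and 1.52 CPM (log2 fold change 3.85, SE 0.45, FDR 0.00458). No dendritic cell gene of 14 tested was called with edgeR. All 14 had positive log2 fold changes, from 0.19 to 3.17, 4 had an unadjusted p under 0.05, DESeq2 called 3, and without Bcor-Runx1 replicate 2 or 1 edgeR called 4 or 1.

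**Figure D3:**
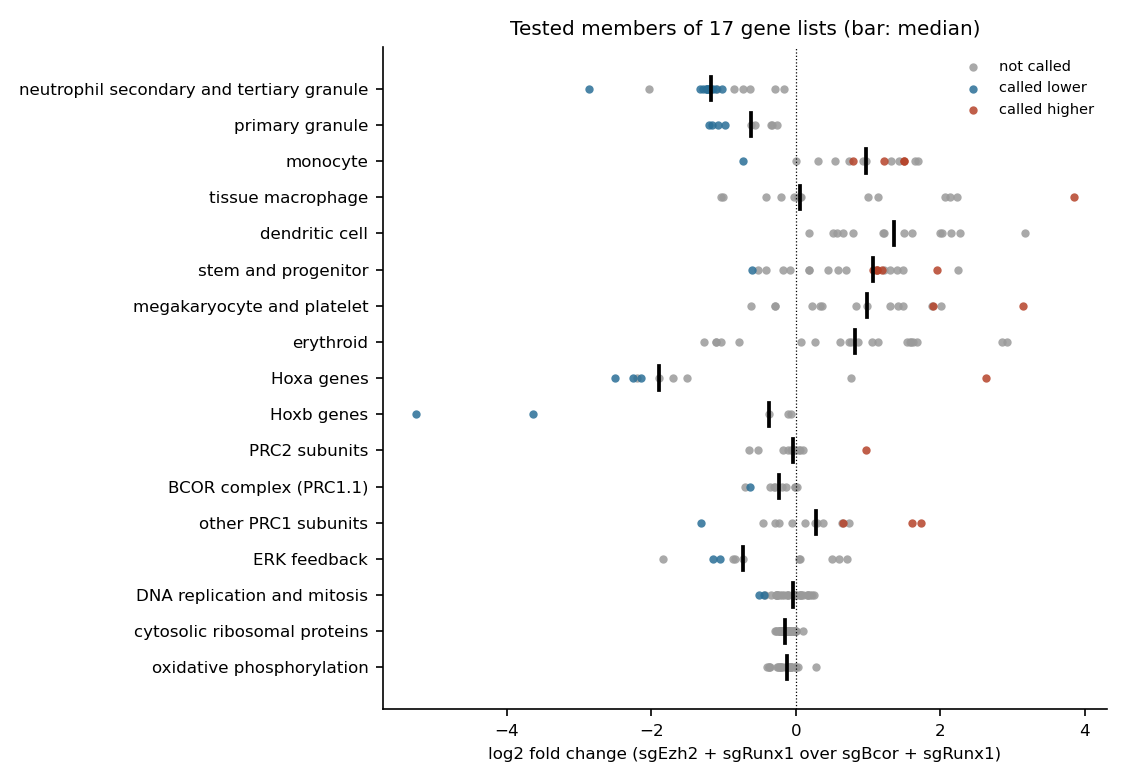
Log2 fold change of sgEzh2 + sgRunx1 over sgBcor + sgRunx1 for every tested member of 17 gene lists, 1 point a gene, coloured by call, with a bar at the list's median. Granule genes lie left of 0 with 13 of 20 called lower, monocyte genes lie mostly to the right, 3 Hoxa genes are called lower, and ribosomal protein genes stay close to 0.

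Of 21 stem and progenitor genes, 5 rose (Cd48, Cd34, Meis1, Mllt3 and Angpt1) and 1 fell (Erg), with a median log2 fold change of 1.06. The shares over all tested genes were 4.98% called higher and 3.41% called lower. Cd48, a surface protein of progenitors and most white cells, was at 109.7, 123, 80.6 and 115 CPM against 46.6, 57.4 and 42.8 CPM (log2 fold change 1.13, SE 0.17, FDR 0.00791) and kept its call in all omissions. Cd34, a sialomucin of progenitor cells, was at 173, 141, 123 and 162 CPM against 59.6, 100.1 and 55.1 CPM (log2 fold change 1.06, SE 0.22, FDR 0.0235), and lost its call without Bcor-Runx1 replicate 3 or Ezh2-Runx1 replicate 1 or 4 (FDR up to 0.074). The number of members called higher fell to 1 without any of these 3 libraries and to 3 without Ezh2-Runx1 replicate 2 or 3, and no member was called lower in any omission. Selp, P-selectin of platelets, was at 39.4, 88.9, 50.8 and 39.9 CPM against 14.8, 12.95 and 16.4 CPM (log2 fold change 1.90, SE 0.30, FDR 0.00869). Selp belongs to a list of 15 tested megakaryocyte and platelet genes, whose median log2 fold change was 0.99, and kept its call in every omission. Of 20 tested erythroid genes, none was called with edgeR, 2 had an unadjusted p under 0.05 and DESeq2 called 1. Their log2 fold changes ran from -1.28 to 2.92, and 1 was called higher without Bcor-Runx1 replicate 2. Lin28a, an RNA-binding protein of the fetal stage, was the called member of 6 tested fetal genes, at 25.1, 34.995, 30.7 and 30.8 CPM against 53.7, 75.5 and 95.3 CPM (log2 fold change -1.30, SE 0.20, FDR 0.0074). It kept its call in all omissions, and sgLuc marrow held it at 31.7 to 75.9 CPM.

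Lymphoid transcripts were scarce in both groups. The calls in this paragraph stand beside 4.98% of all tested genes called higher and 3.41% called lower. The 12 mature B cell genes summed to 771 to 1319 CPM in Ezh2-Runx1 and 634 to 1242 CPM in Bcor-Runx1 marrow, against 3274 to 24548 CPM in sgLuc marrow, and the 20 T cell genes summed to 11.6 to 39.6 and 10.9 to 52.6 CPM, against 93.3 to 256 CPM. Among 11 tested mature B cell genes, Fcrl1, an Fc receptor-like protein, rose by 1.64 (SE 0.25, FDR 0.00791), with a call in every omission, and Cd22, a B cell inhibitory receptor, rose by 2.69 (SE 0.70, FDR 0.0498) but was called only when Bcor-Runx1 replicate 2 or Ezh2-Runx1 replicate 2 was the library left out (FDR up to 0.143 otherwise). Prdm1, the regulator Blimp-1 of plasma cells and some myeloid cells, was at 5.23, 6.70, 6.26 and 8.12 CPM against 1.04, 1.62 and 0.785 CPM (log2 fold change 2.52, SE 0.34, FDR 0.00547). Ciita, the master activator of MHC class II genes, was at 10.5, 5.84, 5.75 and 14.1 CPM against 1.34, 2.28 and 1.57 CPM (log2 fold change 2.39, SE 0.40, FDR 0.011). Both kept their calls in all omissions. The other 9 MHC class II genes had log2 fold changes from -0.09 to 1.67 and were not called. Prg2, the major basic protein of eosinophils, was at 12.7, 6.27, 13.2 and 18.2 CPM against 47.6, 50.9 and 53.8 CPM (log2 fold change -2.01, SE 0.29, FDR 0.00692), the only called gene of 6 tested eosinophil genes, and it too was called in every omission. Of 10 tested basophil and mast cell genes, Cpa3 and Cd200r3 rose by 1.18 and 3.64, and Hdc fell by 0.90. Cpa3 lost its call without Ezh2-Runx1 replicate 4 (FDR 0.050), Cd200r3 without Bcor-Runx1 replicate 3 or any 1 Ezh2-Runx1 library (FDR up to 0.065), and Hdc in all omissions except those of Bcor-Runx1 replicate 1 and Ezh2-Runx1 replicate 2 (FDR up to 0.099).

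Most housekeeping programs gave few calls, beside 8.4% of all tested genes, with 1 exception. None of 44 cytosolic ribosomal protein genes or 25 oxidative phosphorylation genes was called with edgeR or DESeq2, and 0 and 3 of them had an unadjusted p under 0.05. Their log2 fold changes ran from -0.28 to 0.10 and from -0.39 to 0.28. Of 32 DNA replication and mitosis genes, Ccnb2 and Cdc20, which act in mitosis, fell by 0.51 and 0.44 (FDR 0.0233 and 0.0377). Neither was called without Bcor-Runx1 replicate 3 or any 1 Ezh2-Runx1 library (FDR up to 0.138). The exception was Gapdh (chromosome 6, 125161715 to 125166467), a glycolytic enzyme often used as a reference transcript. It was at 52.9, 76.1, 75.5 and 64.2 CPM in Ezh2-Runx1 marrow and at 265, 309 and 338 CPM in Bcor-Runx1 marrow (log2 fold change -2.18, SE 0.16, FDR 0.000667). Without TMM scaling the values were 56.4 to 82.9 and 257 to 313 CPM, and the call held in every omission. The other genes that the table describes by the name of this enzyme (Gapdhs, Gapdh-ps14 and Gapdh-ps15) together held 0.252 to 1.14 CPM in each library. Pseudogenes without that description were not examined, so reads shared with them are unknown. Reads of Iffo1 on the opposite strand overlap Gapdh. Across the other 15 libraries Gapdh lay between 20.6 and 268 CPM. The highest of these values came from sgBcor + sgLuc marrow and the lowest from a control with sgLuc alone. Of the 16 glycolysis genes, Gpi1 fell by 0.83 (FDR 0.0112), Pfkm rose by 1.00 (FDR 0.0151) and 13 were not called. Gpi1 and Pfkm lost their calls without Ezh2-Runx1 replicate 4 (FDR 0.051 and 0.050). Of 11 tested genes of ERK feedback, which the MAP kinase pathway induces to limit itself, Spry2 and Dusp6 fell by 1.14 and 1.05 (FDR 0.0157 and 0.0255), with a list median of -0.74. Spry2 lost its call without Ezh2-Runx1 replicate 4 (FDR 0.061) and Dusp6 without replicate 2, 3 or 4 of that group (FDR up to 0.078).

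Signalling genes are set here beside 8.4% of all tested genes called in either direction. Of 16 tested genes of inflammation and NF-kB signalling, 3 rose and none fell. Tnfaip3, a feedback inhibitor of NF-kB, was at 132, 96.2, 69.4 and 99.7 CPM against 28.3, 52.2 and 24.6 CPM (log2 fold change 1.503, SE 0.30, FDR 0.0208), and it lost its call without Bcor-Runx1 replicate 3 or Ezh2-Runx1 replicate 4 (FDR up to 0.060). Rel, an NF-kB subunit, and Icam1, an adhesion ligand, rose by 0.70 and 0.76 (FDR 0.0452 and 0.0456), and each lost its call in 6 of the 7 omissions, all except that of Ezh2-Runx1 replicate 3 for Rel and of Bcor-Runx1 replicate 1 for Icam1 (FDR up to 0.136). Of 14 tested p53 targets, Zmat3 and Plk2 rose by 2.13 and 1.64 (FDR 0.0277 and 0.0345), with a list median of 0.26. Zmat3 lost its call in all omissions except those of Bcor-Runx1 replicates 1 and 3, and Plk2 in all except that of Bcor-Runx1 replicate 2 (FDR up to 0.086). Of 22 type I interferon response genes, Ifi44 alone was called, at 11.6, 3.88, 0.707 and 10.9 CPM against 0.659, 0.490 and 0.162 CPM (log2 fold change 3.93, SE 0.97, FDR 0.0432). The lowest Ezh2-Runx1 library was close to the highest Bcor-Runx1 library, and Ifi44 was called in only 1 omission, that of Ezh2-Runx1 replicate 3 (FDR up to 0.126). Il1r1, the interleukin-1 receptor, rose by 1.49 (SE 0.30, FDR 0.0207) among 17 growth factor receptors, as did Csf1r, and missed the threshold without Bcor-Runx1 replicate 3 or Ezh2-Runx1 replicate 4 (FDR up to 0.065).

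The same pair of Polycomb guides was also compared without the Runx1 guide, in sgEzh2 + sgLuc (3 libraries) against sgBcor + sgLuc (3), which share no library with the doubles. Library 3 of sgEzh2 + sgLuc stood apart: it held Ngp at 52.7 CPM against 16607 and 14823 CPM in the other 2, so values are given with and without it. With all 6 libraries, none of 16369 genes (0%) passed the FDR with edgeR, 1011 had an unadjusted p under 0.05 and DESeq2 called 326. Of the genes called higher in the doubles, 715 could be tested in the singles and 534 (74.7%) had a positive log2 fold change there, beside 51.8% of all genes. Without library 3 the shares were 73.9% and 48.2%. Of the genes called lower, 421 of 521 (80.8%) were negative in the singles, beside 48.2% of all genes, but without library 3 only 59.5%, beside 51.8%. The shares for higher genes therefore did not rest on library 3, while those for lower genes moved with it.

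Single genes are given side by side for both comparisons. Tln2 had a log2 fold change of 7.34 in the doubles and 7.33 in the singles without library 3, and Lrig3 5.91 and 4.56. Hoxa9, Hoxa7 and Hoxa5 had -2.50, -2.25 and -2.15 in the doubles and -2.26, -2.36 and -2.09 in the singles without library 3. Hoxa9 was at 26.2 CPM in sgBcor + sgLuc (SD 2.30, n = 3) on the 22-library scale, beside 19.8 CPM in Bcor-Runx1 marrow (SD 9.65, n = 3). For Spire1 the 2 values were 5.55 and 0.87. Zfp827 had -5.40 and -1.91, and with all 6 single libraries 0.03. Ngp and Camp had -1.33 and -1.24 in the doubles and 0.04 and 0.27 in the singles without library 3, and Ccr2 had 1.497 and 0.37. Igf1 had 4.99 and -3.83, where 1 sgBcor + sgLuc library held 63.2 CPM and the other 2 held 2.07 and 0.400 CPM. Whether a difference was larger with than without the Runx1 guide was tested over the 13 libraries of these 4 groups, and none of 17183 genes (0%) passed the FDR with edgeR, with 1531 at an unadjusted p under 0.05 and 180 called by DESeq2. For Spire1 that test gave a log2 difference of 4.64 (FDR 0.254), for Zfp827 -5.40 (FDR 0.334) and for Ngp -0.76 (FDR 0.920).

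**Figure D4:**
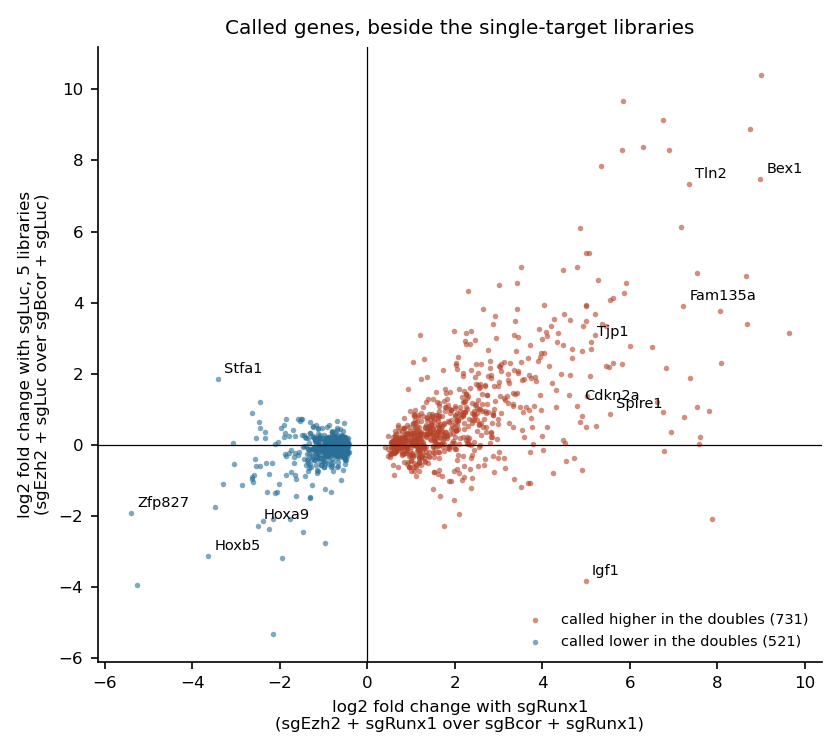
Log2 fold change of genes called in the doubles (horizontal axis, sgEzh2 + sgRunx1 over sgBcor + sgRunx1) against the same Polycomb contrast with sgLuc in place of sgRunx1 (vertical axis, 5 libraries, without sgEzh2 + sgLuc 3), 1 point a gene. Of 731 genes called higher and tested in both, 540 lie above 0, and of 521 called lower, 310 lie below 0, with Tln2 and Bex1 high on both axes, and Igf1 and Stfa1 of opposite sign.

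**Figure D5:**
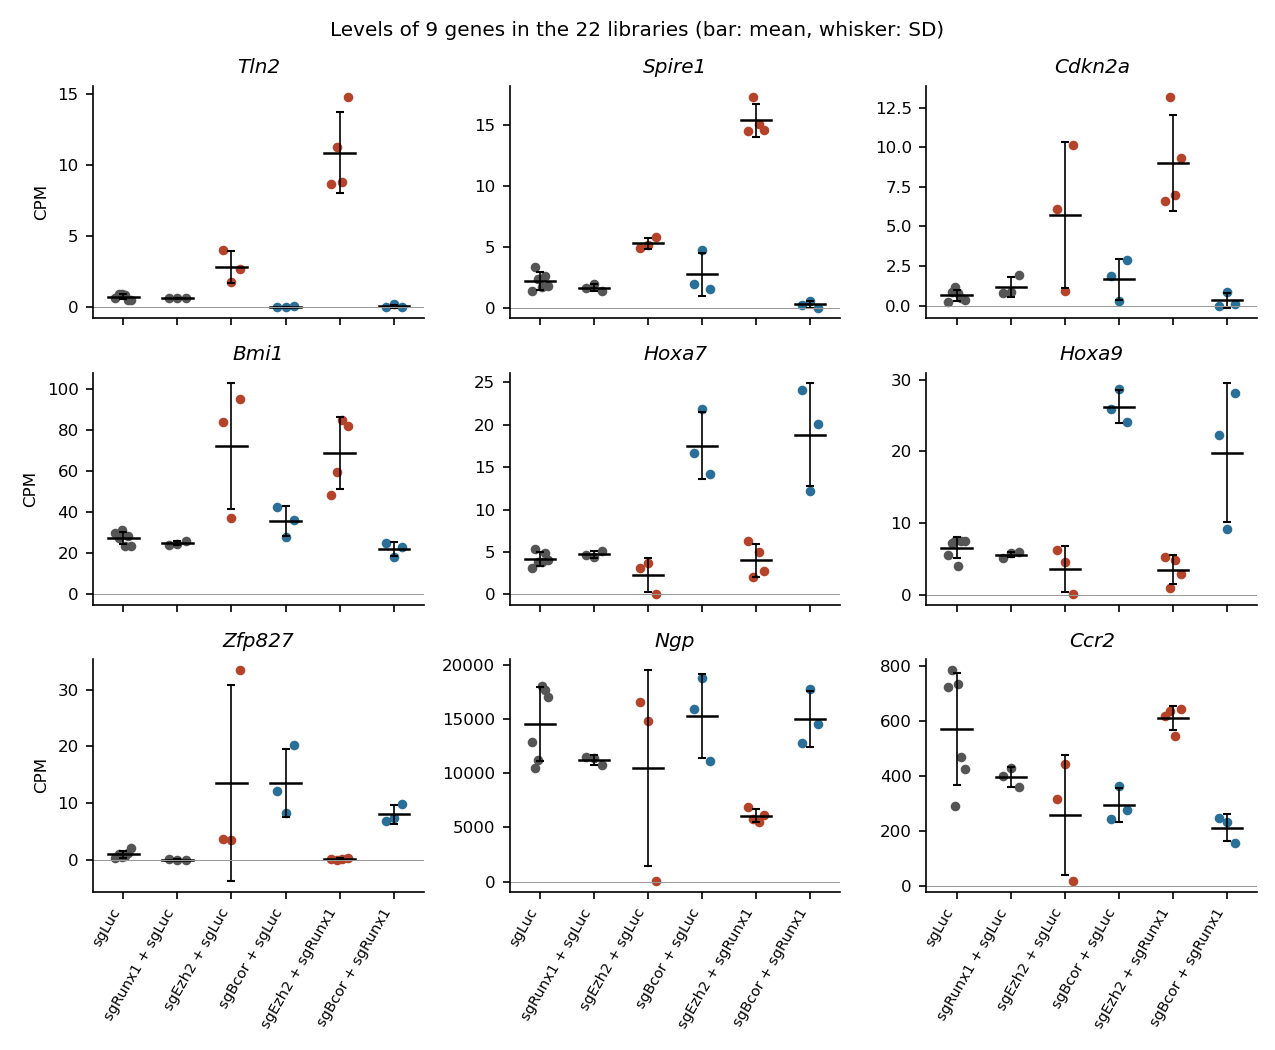
Level of 9 genes in all 22 libraries (CPM on the scale of all libraries, linear axis), 1 point a library, with the mean as a bar and the SD as a whisker, n = 6 for sgLuc, 4 for sgEzh2 + sgRunx1 and 3 for the other groups. Hoxa7 and Hoxa9 are high in both Bcor groups, Tln2 is highest in sgEzh2 + sgRunx1, and 1 sgEzh2 + sgLuc library is near 0 in Ngp and Ccr2.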

How the data were processed

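Polyadenylated RNA of whole bone marrow from 22 mice was sequenced, per the labels' protocols. The authors deposited read counts per Ensembl gene, whole numbers with no normalization, and FPKM values. The submitters' processing notes name fastp, HISAT2, HTSeq and the build mm9, with no version. Options, use of strand and annotation are not given in the sources used. Groups come from the sample titles. The members and gene lists were chosen with earlier results of these data known.

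The deposited counts of the 7 libraries (34784989 to 53836084 reads each) were fitted alone in edgeR 4.0.16 (R 4.3.3): filterByExpr by group with a minimum count of 10, TMM scaling, glmQLFit and glmQLFTest (robust, 5 residual degrees of freedom), Benjamini-Hochberg over all tested genes, called at an FDR under 0.05. The filter keeps genes that are high in 1 group only, so such genes enter the test through that group. The biological coefficient of variation was 0.310 here and 0.524 in the single-target libraries. The SE was taken as the size of the log2 fold change over the root of F. Sums and levels are TMM-scaled CPM. The authors' FPKM served only to compare levels between genes. PCR copies were not marked, so the limit set by a count of 0 covers counting error only.

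The genes named were Runx1, Ezh2 and Bcor, then the 12 largest log2 fold changes in each direction among genes that were called, did not overlap between groups and averaged 2 CPM or more (predicted genes and receptor segments passed over), then up to 4 called members of each of 48 lists in order of p, and the tested Hoxa genes. Results of some genes that this rule names are not reported here. Angpt1 and Erg are further called members that only complete a count. Of 733 list symbols, 732 were in the table. Alternatives were other scalings and filters, DESeq2 1.42.0, fits of more libraries, a replicate block and the omission of each library. The fitting script was tested on simulated data. Positions are from GENCODE M21 (GRCm38), matched by ID for 15223 of 15286 tested genes. These positions are of a later build than mm9 and nothing was converted. RefSeq promoter windows (250 bases before to 50 after the start, GRCm38.p6) matched too few tested genes for a comparison over all called genes, and that check is void.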

Additional observations from a re-analysis of the deposited data

Results flagged for a closer look

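In 6 of 101 named genes, 1 of the 4 Ezh2-Runx1 libraries lay further from the other 3 than Dixon's 95% critical value allows. Chance alone gives this in about 1 of 20 groups, and 5.94% of the named genes showed it. Replicate 2 was the one apart in 4 of them. Spire1 was at 17.1 CPM there and at 14.2, 14.6 and 14.2 CPM in the others. Igf1 was at 3.09 CPM there and at 11.4 to 13.1 CPM elsewhere. Epop was at 15.2 CPM beside 11.7 to 12.05 CPM, and Bcor at 53.6 CPM beside 62.8 to 64.7 CPM. Replicate 3 held Pbx3 at 25.4 CPM beside 20.3 to 20.7 CPM. Replicate 1 held Pfkm at 21.7 CPM beside 17.1 to 17.7 CPM. Their causes were not tested.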

How the results depend on the processing

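The count of called genes in the doubles, 1284, was 1277 with RLE scaling, 1319 without the count filter and 1160 with a mean of at least 1 CPM. It was 1245 in a fit of all 22 libraries (802 of the same genes), 2726 when sgEzh2 + sgLuc 3 was left out of that fit, and 2384 with DESeq2, which called all 1284. Leaving out 1 library gave 360 to 1667. The numbers in titles or descriptions did not pair the libraries (correlations of same-numbered deviations -0.0753 to 0.0183 and -0.096 to -0.052). With a replicate block on the title number 130 genes were called, and with one on the description number 2. Both block fits drop or isolate the library with no partner, Ezh2-Runx1 replicate 4 by title number and replicate 1 by description number. Leaving out that library alone, without a block, gave 360 and 541 calls. Why the block fits called fewer genes, and whether a call lost there marks a weaker effect, was not tested. In the singles, 0 genes were called by edgeR (smallest FDR 0.199), 326 by DESeq2, 90 in the fit of all 22 libraries, 145 in that fit without sgEzh2 + sgLuc 3, and 0 to 22 when 1 library was left out. For the difference of the 2 differences, DESeq2 called 180 and edgeR 0 (smallest FDR 0.153), also in each omission. Runx1, not called, turned to -0.048 with the block on the description number, and ran from -0.12 (without Bcor-Runx1 replicate 1) to 0.14 over the omissions, with -0.058 without Ezh2-Runx1 replicate 1. The causes were not tested. Of the named genes' other values, 1172 kept their direction and side of the threshold, 432 kept their direction without the call, and 1 gained a call. Of the counts of called list members, 450 stayed within 1.5 times and 318 moved further. Genes near 0 reads in 1 group, with fold changes that rest on under 10 reads, are the least precise here.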

Other observations

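Genes of the X chromosome stood out among those higher in Ezh2-Runx1 marrow. This was noticed after the values were seen. Of 487 tested X-linked genes, 53 (10.9%) were called higher and 3 (0.616%) lower, beside 4.79% and 3.51% of 14799 genes elsewhere. In total 11.5% of X-linked genes were called, against 6.64% to 10% on each autosome. The median log2 fold change was 0.09 over all X-linked genes and -0.01 over genes elsewhere. Among the 53 X-linked genes called higher the median was 2.20, beside 1.86 among all 762 genes called higher. Both of these medians follow in part from the selection by call. The X-linked share called higher was above that of other genes under each alternative scaling and filter, with DESeq2 and in each omission of 1 library, from 4.64% beside 1.62% without Ezh2-Runx1 replicate 4 to 10.9% beside 6.21% without Bcor-Runx1 replicate 2. It was 0.411%, under the 0.655% of other genes, with a replicate block on the title number and 0 with one on the description number. Xist itself was at 685, 439.5, 669.98 and 579 CPM against 436, 302 and 463 CPM (log2 fold change 0.57, FDR 0.122, edgeR) and was not called. Its part in the result was not tested.

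The 53 genes included members of small X-linked gene families. These members were taken by symbol after seeing the values, so no test is given. Of 5 Bex genes, which encode small adaptor proteins best known from neurons, 4 were called higher and none lower. Bex1 was at 1.48, 1.41, 1.32 and 1.74 CPM in Ezh2-Runx1 marrow and had no read in the 3 Bcor-Runx1 libraries. Against the limit of 3 reads over that group (0.0243 CPM), Bex1 was at least 61.1-fold higher. Bex4 was at 2.64, 2.85, 2.31 and 1.96 CPM against 0, 0.231 and 0 CPM. Of 4 tested Tceal genes, relatives of the Bex genes, 3 were called higher, and Tceal8 was at 28.6, 33.7, 31.6 and 27.2 CPM against 1.69, 6.35 and 0.433 CPM (log2 fold change 3.43). All 3 Rtl8 genes, derived from a retrotransposon, and 3 of 6 Armcx genes were called higher, and none of either family lower. The monoamine oxidase Maob was at 2.37, 4.64, 2.76 and 3.03 CPM against 0.141, 0.231 and 0 CPM, and the actin-bundling protein Pls3 at 4.45, 4.79, 4.07 and 4.70 CPM against 0.0471, 0.577 and 0.0541 CPM. Near-identical members of these families can share reads.

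The single-target libraries showed the same sign in most of these genes. Of 50 that could be tested in sgEzh2 + sgLuc against sgBcor + sgLuc without sgEzh2 + sgLuc 3, 45 had a positive log2 fold change, with a median of 0.87, and with all 6 libraries 40 of 48 with a median of 1.24. In the fit without sgEzh2 + sgLuc 3, 73.9% of all genes called higher in the doubles were positive, beside 48.2% of all genes. The same sign is therefore not particular to X-linked genes. Tceal8 was at 0.356 to 1.41 CPM in sgBcor + sgLuc, 0.445 to 6.23 CPM in Bcor-Runx1 marrow, 4.99 to 19.3 CPM in sgLuc and 27.8 to 34.0 CPM in Ezh2-Runx1 marrow, on the scale of all 22 libraries. On that scale it was at 0.867 to 19.1 CPM in sgEzh2 + sgLuc and 19.7 to 23.5 CPM in sgRunx1 + sgLuc. Bex1 was at 1.47 to 4.13 CPM in sgEzh2 + sgLuc and at 0.0317 to 0.474 CPM in sgLuc.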
